A study of Mus musculus with 6 samples.

Results

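Keratins of simple and of stratified epithelium were followed in cells sorted from the mouse uterus: Krt7, Krt8, Krt18 and Krt19, the keratins of single-layered epithelium, and Krt5, Krt13, Krt14, Krt15 and Krt17, which mark basal or squamous epithelium. They are 9 of the 26586 genes of the count table and were chosen by name, and all 9 had enough reads to be tested. Axin2rtTA; tetOH2BJGFP mice express the rtTA activator under the Axin2 promoter, and rtTA with doxycycline turns on a nuclear H2B-GFP reporter. The 3 mice carried both transgenes. Their ovaries were removed at 4 weeks of age, doxycycline followed after 2 weeks without treatment, and the uteri were collected 4 days after it, at 6 weeks. Epithelial cells were isolated and sorted into a GFP-positive fraction, labelled Axin2+, and a GFP-negative fraction, labelled Axin2-, which gave 3 libraries each, numbered by mouse. The labels also speak of pooling the cells of the mice, in which case the p-values would measure no more than the spread between libraries drawn from 1 pool. The comparison asks which transcripts set the GFP-positive fraction apart from the GFP-negative one.

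Keratins are the intermediate filament proteins of epithelial cells. A filament needs both kinds of subunit, an acidic type I and a basic type II keratin, and the pairs differ between epithelia. Krt8 (type II) pairs with Krt18 (type I) in simple epithelium such as that lining the uterus and its glands, where Krt7 (type II) and Krt19 (type I) are also made. Krt5 (type II) pairs with Krt14 (type I) in the basal layer of skin and of the vagina, Krt15 is a further type I keratin of basal cells, Krt17 marks appendages, stressed and some basal epithelium, and Krt13 belongs to the upper layers of internal squamous epithelium. Mesothelium, the covering of the uterus, makes simple keratins too.

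In the mm10 mouse genome the genes lie in the keratin clusters of chromosomes 11 and 15 (GENCODE M21 positions). Krt7 (101411043 to 101430313, plus strand), Krt5 (101707070 to 101712898, minus strand), Krt8 (101996698 to 102004482, minus strand) and Krt18 (102028180 to 102032027, plus strand) lie on chromosome 15, where Krt18 is the type I gene that sits beside its type II partner Krt8. The other type I genes lie on the minus strand of chromosome 11: Krt13 (100117327 to 100121566), Krt15 (100131758 to 100135928), Krt19 (100140810 to 100148665), Krt14 (100203162 to 100207548) and Krt17 (100256217 to 100261029). Of the 9 genes, 6 had a promoter entry in RefSeq (GRCm38.p6), and for Krt7, Krt8, Krt18, Krt5 and Krt13 the RefSeq start lay within 200 bases of the start of a principal transcript. Shown are 150 bases before the start and the first 10 from it for the simple keratins Krt7, Krt8 and Krt18, which moved together in the data below, and for the basal keratin Krt5, which did not pass the test. Capitals mark matches to the motifs searched.
Krt7 (chr15:101412253-101412412, plus strand): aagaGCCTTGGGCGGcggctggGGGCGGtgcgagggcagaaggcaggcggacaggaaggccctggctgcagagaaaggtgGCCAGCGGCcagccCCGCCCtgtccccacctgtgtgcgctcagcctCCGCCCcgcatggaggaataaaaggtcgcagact
Krt8 (chr15:102004333-102004492, minus strand): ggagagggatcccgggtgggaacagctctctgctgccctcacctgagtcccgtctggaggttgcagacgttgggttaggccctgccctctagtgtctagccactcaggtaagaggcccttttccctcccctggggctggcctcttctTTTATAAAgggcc
Krt18 (chr15:102028066-102028225, plus strand): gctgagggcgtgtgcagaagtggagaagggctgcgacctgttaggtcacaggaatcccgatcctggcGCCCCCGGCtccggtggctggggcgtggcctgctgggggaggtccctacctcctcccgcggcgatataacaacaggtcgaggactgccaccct
Krt5 (chr15:101712896-101713055, minus strand): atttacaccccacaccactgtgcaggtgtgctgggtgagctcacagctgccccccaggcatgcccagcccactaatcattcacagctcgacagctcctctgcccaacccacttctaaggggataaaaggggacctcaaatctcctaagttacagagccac
The motifs were the TATA box TATAAA, the GC box GGGCGG, the AP-2 motif GCCNNNGGC, the AP-1 motif TGANTCA, the TCF/LEF core CTTTGA and the grainyhead core ACCGGT, searched on both strands from 250 bases before to 50 after the start. Krt7 held 4 GC boxes and 2 AP-2 motifs, the first of which overlaps a GC box. Krt18 held 1 AP-2 motif and Krt8 a TATA box at its RefSeq start, whose letters overlap a match on the other strand, while the window of Krt5 held none of the 6 motifs and that of Krt13 held 1 AP-1 motif. The RefSeq start of Krt8 lies 140 bases downstream of its principal transcript start. Its TATA box and most of the bases shown thus lie past that start. The distance was 1 base for Krt7, 36 for Krt18 and 7 for Krt5. Of the 32851 RefSeq promoter windows, 35.7% held the GC box, 16.6% the AP-2 motif, 13.6% the TATA box, 7.81% the AP-1 motif, 16.003% the TCF/LEF core and 2.33% the grainyhead core. A match is a stretch of letters and was not tested as a site.

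Library totals ran from 49714402 to 59597315 counts. Transcripts of Axin2 itself, the gene behind the reporter, serve as a check on the labels and stood lower in the libraries labelled Axin2+, at 165, 243 and 299 CPM (counts scaled to a common library size with TMM factors) in mice 1, 2 and 3, than in those labelled Axin2-, at 369, 357 and 356 CPM. It did not pass the test (log2 fold change -0.61 ± 0.21 SE, edgeR adjusted p = 0.0710), but did in DESeq2 (0.0338) and without the library of mouse 3 labelled Axin2+ (0.0290), and directions below are those of the libraries as labelled. Of the 15 epithelial markers 15 were higher in the libraries labelled Axin2+, with summed levels of 1618 to 1933 CPM against 112 to 181 CPM. The libraries labelled Axin2- held more of the smooth muscle markers (367 to 623 CPM labelled Axin2+, 3228 to 7705 CPM labelled Axin2-) and of the stromal fibroblast markers (2714 to 4089 against 10017 to 20853 CPM), so markers of the labelled epithelium were high in one fraction and low in the other. Of the 10 smooth muscle markers 10 fell, Acta2, Actg2 and Cnn1 with the smallest p, and of the 10 stromal ones 9 fell, led by Fbln1, Lum and Col5a1. In bulk samples fewer cells of a type and less RNA per cell cannot be told apart, and the part of this difference in the keratin values was not tested.

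The 4 keratins of simple epithelium were all higher in the libraries labelled Axin2+, by 6.89 to 9.995 times in mean CPM, whereas of the 5 basal or squamous keratins 1, Krt15, passed the test, and its call was lost when any of 4 single libraries was left out. Thus 5 of the 9 keratins rose and 0 fell at an edgeR adjusted p under 0.05, against 14.5% of the 16896 tested genes that rose and 12.8% that fell. Without the library of mouse 2 labelled Axin2+, Krt15 did not pass and 4 of the 9 rose. The median log2 fold change was 3.23 over the simple keratins and 2.14 over the basal or squamous ones, beside -0.01 over all genes tested.

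Krt8, the type II subunit of the simple epithelial filament, stood at 896, 496 and 396 CPM in the libraries of mice 1, 2 and 3 labelled Axin2+, against 44.5, 72.04 and 62.3 CPM in those labelled Axin2-. The lowest library labelled Axin2+ thus lay above the highest labelled Axin2-, and the log2 fold change was 3.32 ± 0.36 (SE, edgeR adjusted p = 0.00107). Its partner Krt18 had 748, 553 and 409 CPM against 47.2, 53.2 and 79.3 CPM, with a log2 fold change of 3.25 ± 0.30 (SE, edgeR adjusted p = 0.000601). For Krt18 too the fractions did not overlap, and the order of the mice in the libraries labelled Axin2+ was that of Krt8. Krt19, the smallest keratin and one without a tail domain, had 494, 386 and 367 CPM against 34.9, 48.3 and 51.7 CPM. Its spread between libraries labelled Axin2+ was the lowest of the 9, with a highest value 1.34 times the lowest, and its log2 fold change was 3.21 ± 0.21 (SE, edgeR adjusted p = 0.000251). Krt7, a type II keratin of ducts and glands, had 113, 71.4 and 58.4 CPM against 11.9, 9.52 and 13.9 CPM, a log2 fold change of 2.78 ± 0.28 (SE, edgeR adjusted p = 0.000844). In all 4 genes each library labelled Axin2+ lay above each labelled Axin2-, a pattern that 23.9% of all tested genes showed in the same direction and 23.2% in the opposite one. In the libraries labelled Axin2+ all 4 were highest in mouse 1, as were the summed levels of the mesothelial and of the immune markers given below, and the part of such RNA in that was not tested. Without that library the 4 log2 fold changes ran from 2.47 for Krt7 to 3.07 for Krt19, and all passed.

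**Figure D1:**
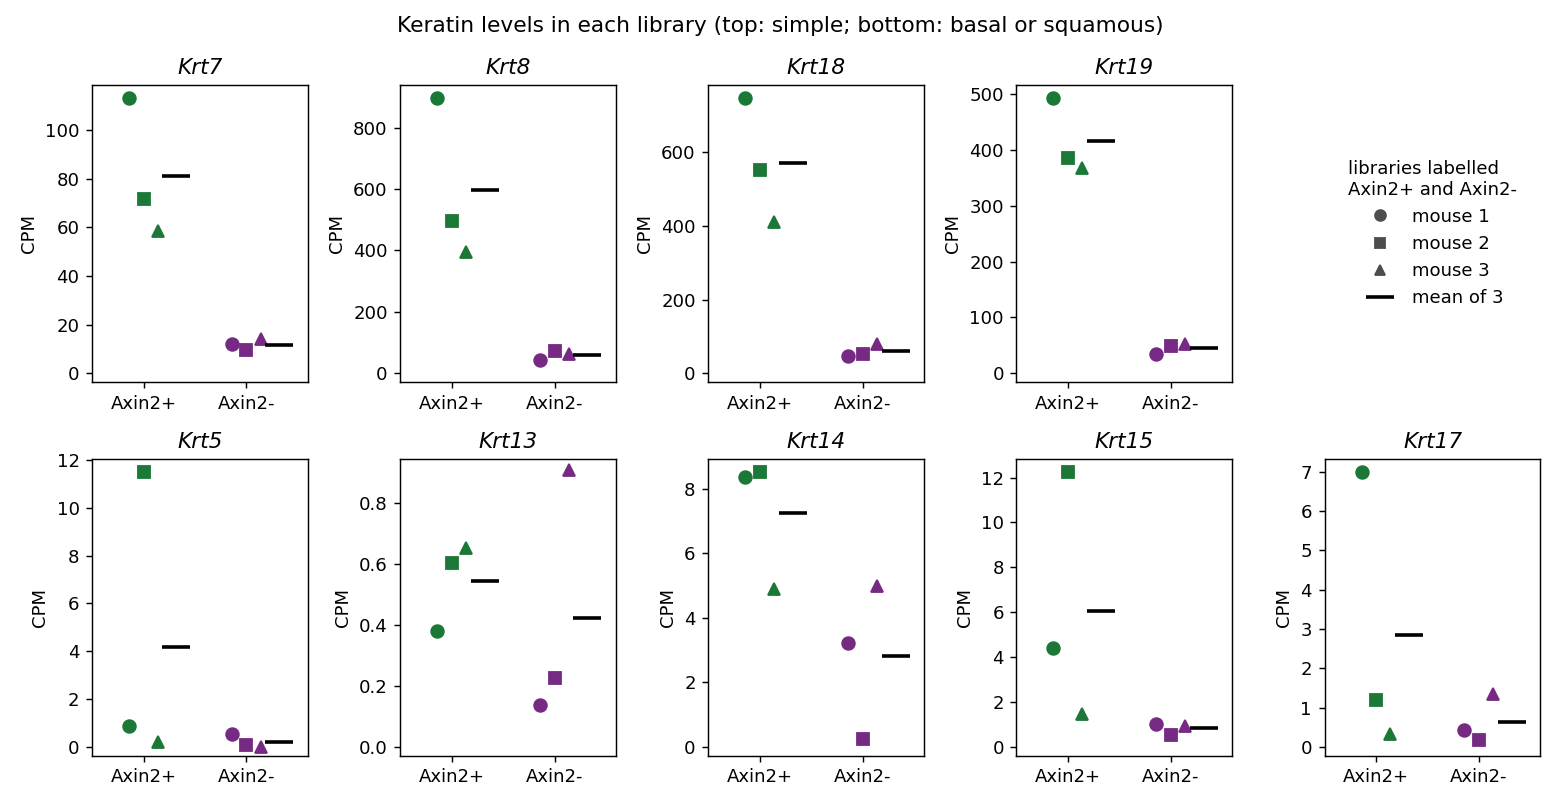
Level of each keratin (CPM, linear axes that differ between panels) in the libraries labelled Axin2+ (left) and Axin2- (right), with 1 point a library and a bar at the mean of 3. The simple keratins separate the fractions in every library, and Krt5, Krt15 and Krt17 each have 1 library labelled Axin2+ well above the other two.

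Basal keratins were low in both fractions and uneven between libraries. Krt15 had 256, 649 and 78 reads in the libraries of mice 1, 2 and 3 labelled Axin2+, which is 4.42, 12.3 and 1.45 CPM, against 1.01, 0.542 and 0.947 CPM in those labelled Axin2-. The fractions did not overlap, but among the libraries labelled Axin2+ that of mouse 2, the highest, held 8.44 times the lowest. The log2 fold change was 2.86 ± 0.77 (SE, edgeR adjusted p = 0.0322). With the mouse as a block Krt15 did not pass (log2 fold change 2.38, adjusted p = 0.106), nor without the library of mouse 2 labelled Axin2+ (1.82, adjusted p = 0.110). It did not pass either when the library of mouse 1, 2 or 3 labelled Axin2- was left out (adjusted p = 0.0803, 0.0938 and 0.0932), and over 12 other settings its adjusted p ran from 0.000292 to 0.110 in edgeR and DESeq2.

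Krt5, the type II keratin of basal cells, was highest by far in 1 library: it had 52, 608 and 11 reads in the libraries of mice 1, 2 and 3 labelled Axin2+, against 27, 4 and 0 in those labelled Axin2-. In CPM this was 0.897, 11.5 and 0.205 against 0.525, 0.0699 and 0. The fractions overlapped, and Krt5 did not pass, at a log2 fold change of 4.39 ± 1.77 (SE, edgeR adjusted p = 0.108). Leaving out the library of mouse 2 labelled Axin2+ gave 1.47, and leaving out the library of mouse 1 labelled Axin2- gave 6.76. Krt14, its type I partner in basal cells, did not follow it. It had 8.35, 8.51 and 4.89 CPM in the libraries labelled Axin2+, against 3.23, 0.245 and 4.98 CPM in those labelled Axin2-. Among the libraries labelled Axin2+, mice 1 and 2 were thus alike for Krt14, while Krt5 was far higher in mouse 2, and the lowest library of all for Krt14 was that of mouse 2 labelled Axin2-. Krt14 did not pass, with a log2 fold change of 1.37 ± 0.86 (SE, edgeR adjusted p = 0.279), which was 0.82 when the library of mouse 2 labelled Axin2- was left out and 2.08 when that of mouse 3 was.

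Krt17 was high in another library than Krt5: it had 405, 63 and 18 reads in the libraries of mice 1, 2 and 3 labelled Axin2+, against 22, 10 and 65 in those labelled Axin2-. The levels were 6.99, 1.19 and 0.335 CPM against 0.428, 0.175 and 1.34 CPM. Mouse 3 had more Krt17 in the library labelled Axin2-, the fractions overlapped, and Krt17 did not pass, at a log2 fold change of 2.14 ± 1.19 (SE, edgeR adjusted p = 0.223). Leaving out the library of mouse 1 labelled Axin2+ gave 0.24, and leaving out the library of mouse 3 labelled Axin2- gave 3.25. Krt13, the keratin of suprabasal cells, had 22, 32 and 35 reads against 7, 13 and 44, or 0.380, 0.604 and 0.651 CPM against 0.136, 0.227 and 0.906 CPM. Its highest library was labelled Axin2-, and Krt13 did not pass, at a log2 fold change of 0.37 ± 0.83 (SE, edgeR adjusted p = 0.779), which was -0.021 when the library of mouse 1 labelled Axin2- was left out and 1.59 when that of mouse 3 was. In the authors' deposited table the order of the 9 by p is the same, with Krt19 at a log2 fold change of 3.20 (FDR 0.000279), and Krt15 at 2.84 (FDR 0.0310).

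**Figure D2:**
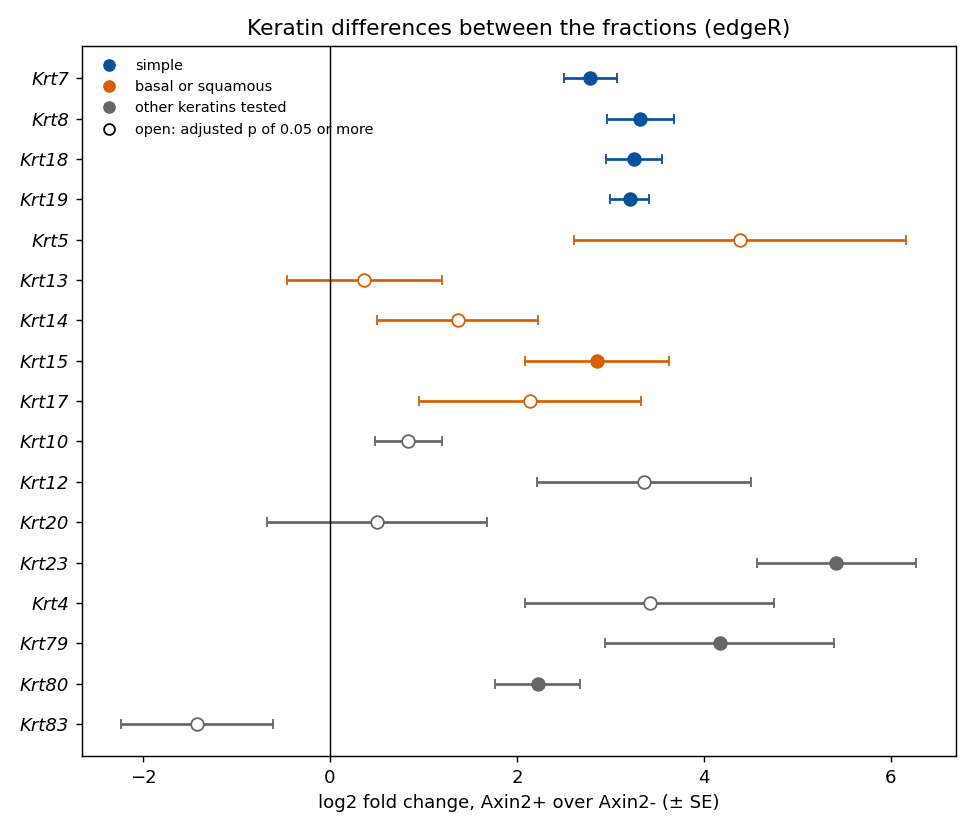
Log2 fold change of the libraries labelled Axin2+ over those labelled Axin2- with its standard error for the 9 keratins and the 8 other keratins that could be tested, with filled points at an edgeR adjusted p under 0.05. The simple keratins lie between 2.78 and 3.32 with short bars, and Krt5 has the largest standard error of the 9, 1.77.

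The spread between libraries labelled Axin2+ differed among the keratins. The standard deviation of log2 CPM was 0.23 for Krt19, 0.43 for Krt18, 0.49 for Krt7 and 0.61 for Krt8, beside a median of 0.25 over all genes tested. For the basal or squamous keratins it was 0.39 for Krt13, 0.45 for Krt14, 1.52 for Krt15, 2.13 for Krt17 and 2.83 for Krt5. Summed over the libraries labelled Axin2+, Krt13 had the fewest reads of these genes, 89 (22, 32 and 35), and the lowest standard deviation among them. In mouse 3, Krt5 and Krt17 had fewer reads than Krt13, at 11 and 18. Few reads add counting error, and its part in the spread was not tested.

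Divided by exon length, the levels had the same order at the top in both fractions. On the TPM scale (reads per kilobase of exon, scaled to the same total in every library), Krt18 averaged 1902 ± 515, Krt8 1455 ± 602 and Krt19 1077 ± 144 in the libraries labelled Axin2+, and 169 ± 49.4, 123 ± 25.8 and 98.2 ± 18.4 in those labelled Axin2- (SD, n = 3 each). Neighbours in that order lay within their spread, but in each of the 6 libraries Krt18 stood above Krt8, by a ratio of 1.14, 1.52 and 1.41 in the libraries labelled Axin2+ and of 1.44, 1.01 and 1.73 in those labelled Axin2-. This order depends on the division by length. In CPM, Krt8 stood above Krt18 in mouse 1 labelled Axin2+ (896 against 748) and in mouse 2 labelled Axin2- (72.04 against 53.2). Reads that Krt8 shares with its pseudogene, described below, also limit these ratios. Krt7 came next, at 55.1 ± 17.8 and 6.79 ± 1.40 TPM. Its level depends on the length used, 7049 bases for the exon union and 4094 for the principal transcript. With principal transcripts Krt7 stood at 65.3 ± 21.6 and 8.30 ± 1.89 TPM, but the TPM scale itself also shifted. The mean share of Krt7 in the 9 keratins went from 1.20 to 1.97% (labelled Axin2+) and from 1.69 to 2.76% (labelled Axin2-). Then came Krt14, at 19.8 ± 5.40 TPM in the libraries labelled Axin2+, a level that Krt15 (16.5 ± 15.5), Krt5 (9.31 ± 14.1) and Krt17 (8.61 ± 10.8) did not differ from beyond their spread, and Krt13 at 1.45 ± 0.42 TPM. In the libraries labelled Axin2- these were 6.59 ± 5.604, 1.93 ± 0.63, 0.372 ± 0.541, 1.71 ± 1.62 and 0.946 ± 0.95 TPM.

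Krt8, Krt18 and Krt19 made up nearly the whole of the summed level of the 9 keratins in either fraction, and the make-up by type differed by less than the spread between libraries. Krt18 took 41.9 ± 1.81% and 41.1 ± 4.55% of the summed TPM in the libraries labelled Axin2+ and Axin2-, Krt8 took 31.3 ± 4.04% and 30.3 ± 5.15%, and Krt19 took 24.4 ± 3.77% and 24.1 ± 1.33% (SD, n = 3 each). Krt7 took a smaller share in the libraries labelled Axin2+, at 1.26, 1.16 and 1.19%, against 2.13, 1.33 and 1.62% in those labelled Axin2-, which did not overlap. The share of Krt13, which had few reads, did not overlap either, at 0.016, 0.038 and 0.051% against 0.095, 0.122 and 0.409%. Shares of the other members overlapped, and none of the shares was tested. Type I over type II transcripts, summed over the 9, stood at 1.68, 2.26 and 2.31 in the libraries of mice 1, 2 and 3 labelled Axin2+, against 2.21, 1.67 and 2.60 in those labelled Axin2-. The 5 basal or squamous keratins together took 0.972, 2.07 and 0.613% in the libraries labelled Axin2+, against 3.79, 0.702 and 3.89% in those labelled Axin2-. These shares overlapped between the fractions, and the high ones labelled Axin2- were mostly Krt14, at 2.32, 0.137 and 2.33% of the sum.

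**Figure D3:**
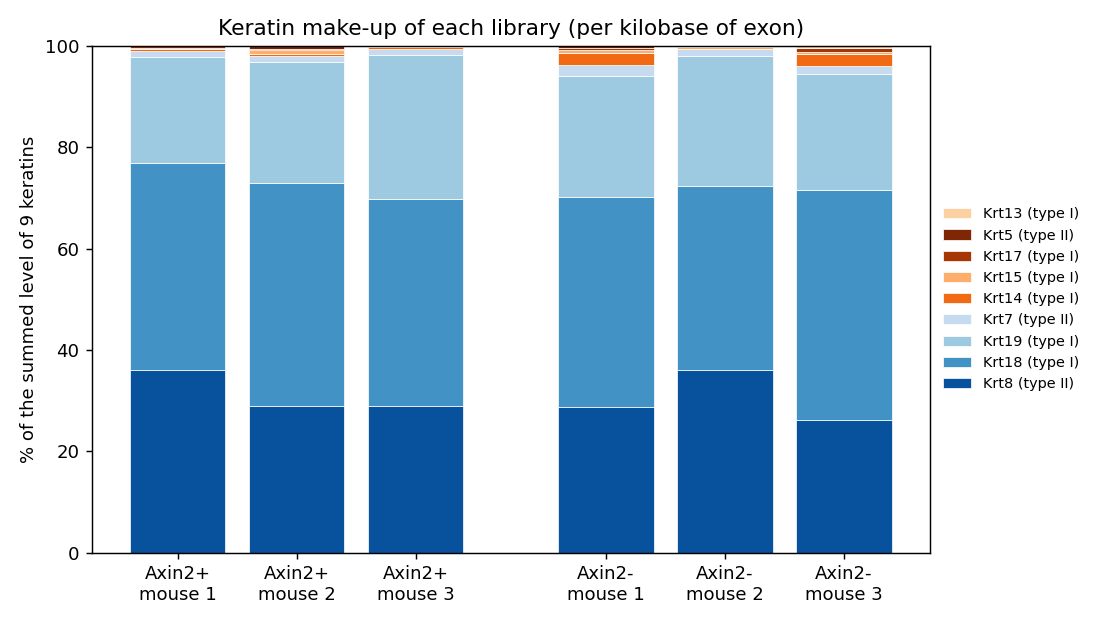
Share of each of the 9 keratins in their summed level (TPM, percent) in each library, with the 3 libraries labelled Axin2+ on the left and the 3 labelled Axin2- on the right. Krt8, Krt18 and Krt19 fill most of every bar, and the basal or squamous keratins (orange and brown) reach 3.89% at most.

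The ratio of each simple keratin to Epcam, and to the sum of the 15 epithelial markers, was on average lower in the libraries labelled Axin2+, with 8 log2 differences of -0.34 to -1.54, but 3 libraries against 3 cannot reach p under 0.05 in the test used. The ratio of Krt19 to Epcam, an adhesion molecule of epithelial cells chosen after the data were seen, was 2.41, 1.52 and 1.64 in the libraries labelled Axin2+, against 4.603, 2.64 and 4.56 in those labelled Axin2- (CPM over CPM). All libraries labelled Axin2+ lay below those labelled Axin2-, and p was 0.1 by an exact two-sided permutation test, the smallest value possible, or 0.267 after adjustment over the 8 ratios tested in this way. Krt8 to Epcam was 4.38, 1.95 and 1.77 against 5.87, 3.93 and 5.49 (exact permutation p = 0.2), and the fractions overlapped. Against the sum of all 15 epithelial markers, the 4 simple keratins together stood at 1.29, 0.779 and 0.760 in the libraries labelled Axin2+ and at 1.24, 1.01 and 1.37 in those labelled Axin2-, which overlapped.

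There were 41 other keratin genes in the counts, and 16 of them had 0 reads in every library, among them Krt6a, Krt6b and Krt16, the keratins of wounded skin, named after their values were seen. A count of 0 allows up to 0.0517 to 0.0618 CPM per library, which covers counting error only. Most of the rest had too few reads to be tested. Of the 8 tested 3 rose, Krt23, Krt80 and Krt79, and 0 fell, beside 14.5% and 12.8% of all tested genes. The tally leaves out keratins below the count filter. Among these, each library labelled Axin2+ lay below each labelled Axin2- for Krt86 and Krt222, and above for Krt1, Krt35 and Krt39. Those keratins had few reads and were named after their values were seen. Krt23, a type I keratin, had 13.1, 5.59 and 9.12 CPM in the libraries labelled Axin2+, against 0.389, 0.0175 and 0.247 CPM in those labelled Axin2-. Every library labelled Axin2+ lay far above the others, and the log2 fold change was 5.42 ± 0.85 (SE, edgeR adjusted p = 0.00457), or 4.86 and 6.19 without the libraries of mice 2 and 1 labelled Axin2-. Krt80, a type II keratin, had 42.04, 21.8 and 12.1 CPM against 6.09, 4.09 and 6.07 CPM, a log2 fold change of 2.22 ± 0.45 (SE, edgeR adjusted p = 0.0122). Krt79, a type II keratin known from hair follicle ducts, had 61 reads against 3, a ratio of 19.4 with an exact 95% counting interval of 6.34 to 96.7. It passed (edgeR adjusted p = 0.0421), but not with the mouse as a block (0.0861), and leaving out 1 library gave adjusted p-values up to 0.119. The other 5, Krt4, Krt10, Krt12, Krt20 and Krt83, did not pass. Krt12, known from the cornea, had 3.47, 8.51 and 0.968 CPM against 0.778, 0.454 and 0.0206 CPM (edgeR adjusted p = 0.0679, and 0.0249 with the mouse as a block). Krt4, the type II partner of Krt13 in squamous epithelium, had 7.26, 0.51 and 0.428 CPM against 0.505, 0.192 and 0.0618 CPM (edgeR adjusted p = 0.0976, and 0.0470 with the mouse as a block). Krt12 was thus highest in mouse 2, as were Krt5 and Krt15, and Krt4 in mouse 1, as was Krt17.

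Genes that anchor keratin filaments rose with the simple keratins. Of 20 listed desmosomal, plakin and hemidesmosomal genes 16 could be tested, 13 rose and 0 fell, with a median log2 fold change of 2.71. For this and the lists that follow, 14.5% of all tested genes rose and 12.8% fell. Dsp, the plakin that ties keratin to the desmosome, had 710, 769 and 651 CPM in the libraries labelled Axin2+, against 58.8, 85.5 and 62.5 CPM in those labelled Axin2- (edgeR log2 fold change 3.36 ± 0.19 SE). Dsg2, a desmosomal cadherin of simple epithelium, and Evpl, which encodes envoplakin, had log2 fold changes of 3.64 and 2.88. The 3 that did not pass were Dsc3, a cadherin of basal cells, and the broadly made linkers Plec and Dst, which were named after their values were seen.

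Of 15 genes of basal epithelium that are not keratins, 13 could be tested and 9 rose, with a median of 2.01 and Itgb4 and Itga6 among those with the smallest p. These encode the subunits of the integrin that fixes epithelium to its basement membrane, which simple epithelium makes as well. The lists share genes: Itgb4 is also counted among the anchoring genes that rose. Bnc1, named for this overlap, is also counted among the mesothelial markers that rose. Trp63, the transcription factor of basal cells, was singled out after its values were seen. It stood at 2.59, 5.70 and 3.74 CPM in the libraries labelled Axin2+ and 3.597, 4.998 and 2.80 CPM in those labelled Axin2- (edgeR log2 fold change 0.08 ± 0.40 SE, adjusted p = 0.905). Col17a1, a hemidesmosomal collagen of basal cells chosen in the same way, had 2.16, 11.5 and 1.08 CPM against 2.16, 1.17 and 2.45 CPM, so that its highest library was that of Krt5 and Krt15. Of 22 genes of squamous differentiation 8 could be tested and 1 rose, a share near that of all genes: Scel, which encodes sciellin (edgeR log2 fold change 3.77 ± 1.13 SE, adjusted p = 0.0451). Scel did not pass with the mouse as a block (0.0926) nor when any of 4 libraries was left out, those of mice 2 (0.113) and 3 (0.107) labelled Axin2+ and those of mice 1 (0.0925) and 3 (0.101) labelled Axin2-. The squamous list summed to 11.7 to 19.9 CPM in the libraries labelled Axin2+ and 4.998 to 13.1 CPM in those labelled Axin2-, and 4 of its genes had 0 reads in every library.

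Of the other intermediate filament genes, which are vimentin-like, neurofilament and lamin genes, more fell than rose, and for Nes, one of those that fell, the fractions overlapped. Of 16 listed, 13 could be tested, 4 fell, Des, Synm and, named after their values were seen, Nes and Bfsp1, and 1 rose, Lmnb1, which encodes lamin B1. Des, the desmin of muscle, had 82.5, 141 and 205 CPM in the libraries labelled Axin2+, against 922, 640.1 and 740.3 CPM in those labelled Axin2- (edgeR log2 fold change -2.42 ± 0.34 SE), and is itself 1 of the 10 smooth muscle markers. Vim, the vimentin of mesenchyme, chosen after its values were seen, had 896, 620 and 410 CPM against 1066, 726 and 749 CPM, which did not pass (edgeR adjusted p = 0.363). The genes that fell numbered 2 when the library of mouse 2 or 3 labelled Axin2+ or of mouse 1 labelled Axin2- was left out, and Lmnb1 did not pass without that of mouse 2 labelled Axin2+ (adjusted p = 0.0527).

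Of 16 transcription factors known to act on epithelial genes, 13 could be tested, 9 rose and 2 fell. Grhl2, a grainyhead factor, Klf5, a Krüppel-like factor, and Ehf, an ETS factor, had log2 fold changes of 3.99, 2.96 and 4.07. Klf4 and Tfap2c, which encodes AP-2 gamma, were those that fell and are named after their values were seen, with log2 fold changes of -1.68 and -1.62. Neither passed when the library of mouse 2 labelled Axin2+ was left out, and 1 of them did when the library of mouse 3 labelled Axin2+ or any 1 of those labelled Axin2- was.

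Markers of further cell types moved with the fractions beside the keratins. Of the 10 mesothelial markers 7 rose, among them Upk3b and Nkain4, and 1, Wt1, fell, with none at 0 in either fraction. They summed to 752, 250.2 and 402 CPM in the libraries of mice 1, 2 and 3 labelled Axin2+, against 299, 231 and 250.1 CPM in those labelled Axin2-. Of 9 immune markers found, Cd3e, a T cell receptor subunit, had the smallest p and fell, with 33 reads in the libraries labelled Axin2+ against 962 in those labelled Axin2- (edgeR log2 fold change -4.97 ± 0.89 SE, adjusted p = 0.00733). In all 6 rose, C1qc and C1qa, which encode complement subunits of macrophages, among them, and 2 fell, with sums of 3374, 1897 and 605 CPM against 252, 63.1 and 336 CPM. The number that rose was 0 without the library of mouse 1 labelled Axin2-, 2 without the library of mouse 2 labelled Axin2+ or with the mouse as a block, and 3 without the library of mouse 1 labelled Axin2+ or the library of mouse 3 labelled Axin2-. The number that fell was 1 without the library of mouse 2 or 3 labelled Axin2+ or the library of mouse 1 or 3 labelled Axin2-. Of 10 endothelial markers 6 rose, led by Esam, Cldn5 and Tie1, with sums of 260 to 469 CPM against 203 to 246 CPM, and 3 rose with the mouse as a block or without the library of mouse 2 labelled Axin2+ or the library of mouse 3 labelled Axin2-. Cdh5, named after its values were seen, went the other way without overlap. It had 55.1, 88.3 and 93.4 CPM labelled Axin2+ against 98.9, 169 and 151 CPM, and did not pass (edgeR adjusted p = 0.0559). The part of these cells in the keratin levels was not tested.

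**Figure D4:**
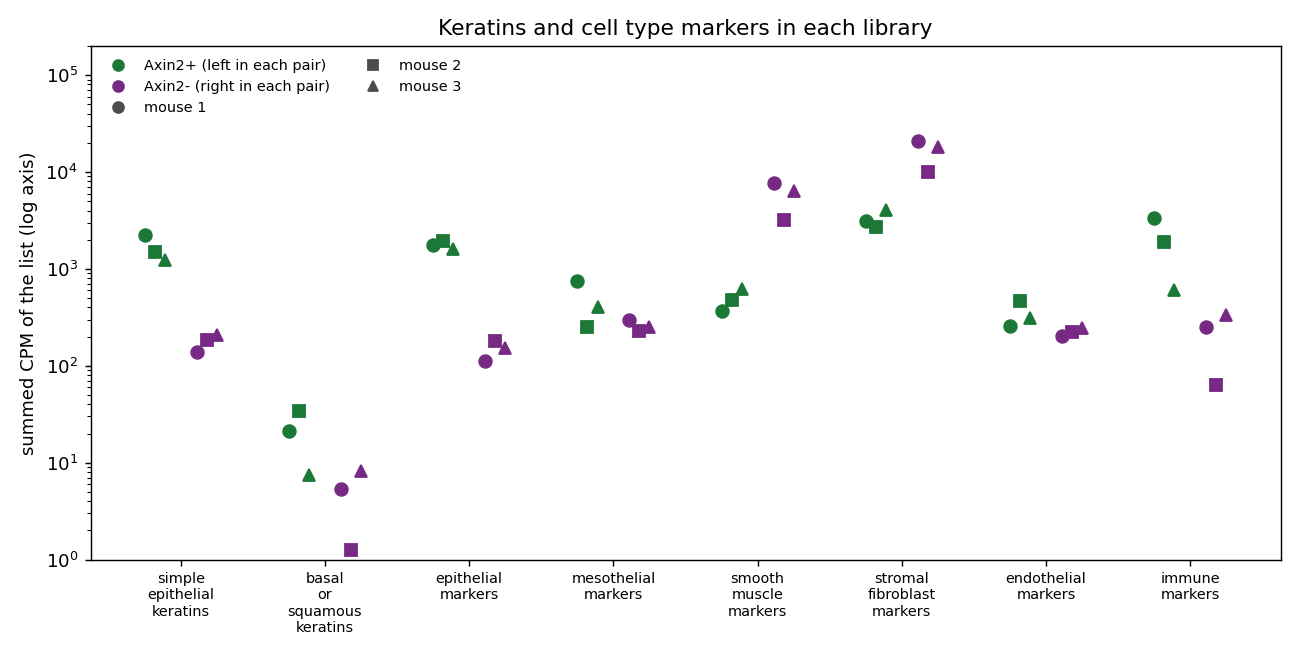
Summed level of each gene list (CPM, log axis) in each library, with the libraries labelled Axin2+ left of those labelled Axin2- in each pair and 1 symbol a mouse. The simple keratins separate the fractions as the epithelial markers do, and the library of mouse 1 labelled Axin2+ is the highest for the simple keratins, the mesothelial markers and the immune markers.

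The genes whose levels over the 6 libraries ran most like the mean of the simple keratins were F11r, which encodes the junctional adhesion molecule A, AI661453, Myo5b, a motor of apical transport, Perp, a desmosomal protein, and Gprc5a. Likeness was the root mean square difference of log2 CPM, each gene centred on its own mean, over 11764 genes with at least 5 CPM, and it was 0.14 to 0.19 for these 5. For Krt15 the nearest were AI467606, Apobec1 and Fam184b (0.51 to 0.53), for Krt14 Anln, Csf2rb2 and Diap3 (0.44 to 0.57), for Krt17 Slc28a2, Hlx and Tm6sf1 (0.46 to 0.59), and for Krt13 Gm13157, Grb14 and D2hgdh (0.24 to 0.34). Among these genes Krt5 had no close match, with Ncf4, Spsb4 and Efhd1 the nearest at 1.47 to 1.64. Krt5 itself averaged 4.19 CPM labelled Axin2+ and 0.198 CPM labelled Axin2-. Genes as low as Krt5 were thus not searched, and whether any of them ran like it was not tested.

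Reads of some keratins could belong to a copy. Of the 50-base stretches of Krt8 transcripts 26.9% also occur in its pseudogene Krt8-ps. The share found in other genes was 13.9% for Krt14, in Krt16 and Krt17, and 8.52% for Krt5, mostly in Krt6a and the gene Gm5478. It was 3.99% for Krt17 and at most 0.720% for Krt7, Krt13, Krt15, Krt18 and Krt19. Krt6a, Krt16 and Gm5478 had 0 reads. Krt7, Krt8 and Krt5 also overlap a non-coding gene on the other strand, and, the strand setting being unstated, reads of the pair cannot be told apart.

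**Figure D5:**
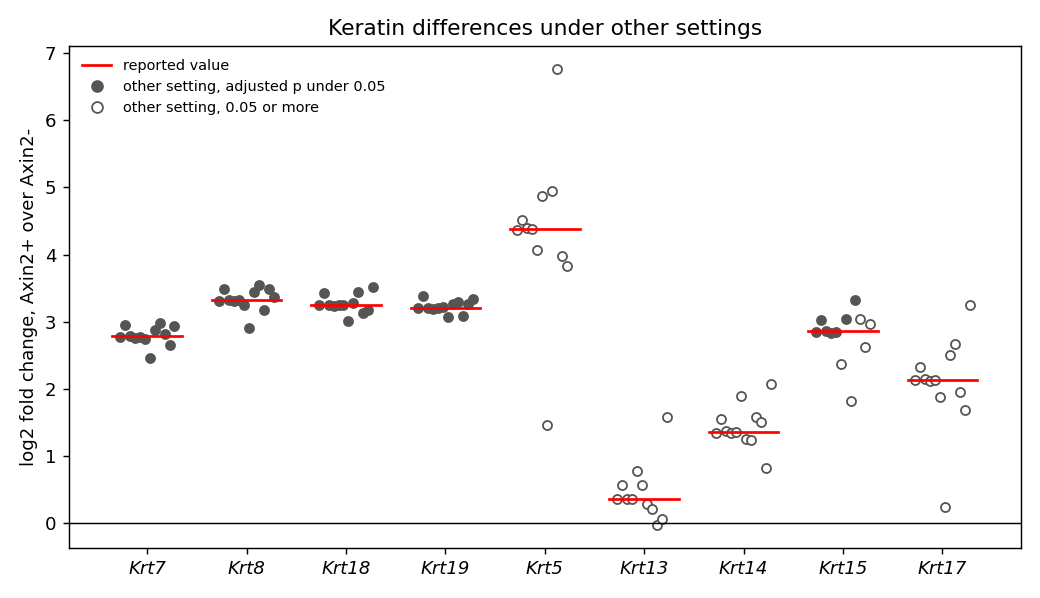
Log2 fold change of each keratin (libraries labelled Axin2+ over Axin2-) as reported (red line) and under up to 12 other settings (points, filled at an adjusted p under 0.05). The simple keratins pass in all 12, Krt15 in 7, and Krt5, Krt13, Krt14 and Krt17 in none.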

How the data were processed

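RNA of the 6 sorted fractions was depleted of ribosomal RNA and sequenced, per the labels' protocols. Read counts per gene were deposited as whole numbers, with, per the file headers, a comparison table by the authors with log2 fold changes, p-values and FDR. The submitters' processing notes name STAR 2.5.3a, featureCounts 1.5.3, StringTie 1.3.3, edgeR 3.22.5 and mm10. The annotation version, the strand setting and the handling of reads with several matches are not stated in the labels or headers used.

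From these counts, edgeR 4.0.16 (R 4.3.3) was run with filterByExpr, TMM factors, and the robust quasi-likelihood F test of Axin2+ over Axin2-, with Benjamini-Hochberg adjusted p-values over 16896 genes and calls under 0.05. Standard errors come from the log2 fold change and F. The procedure was tested on simulated data. Alternatives included DESeq2 1.42.0. The mouse number pairs the libraries, per the labels, which would not hold if the cells were pooled. The main test did not use this pairing. After the fraction means were removed, libraries of 1 mouse correlated at 0.27, 0.01 and -0.07 for mice 1, 2 and 3. Libraries of the 2 fractions with different numbers correlated at -0.24 to 0.25, so a shared number did not stand out. No 2 libraries of a fraction agreed within sampling noise (chi-square per degree of freedom at least 59.7). TPM used exon unions of GENCODE M21, found for 24547 genes. Genes other than the 9 were named by rule: Axin2, the 3 members of each list with the smallest p among those that passed, the other keratins tested and the nearest profiles. The ratios to Epcam and to the marker sum, and Epcam as a denominator, were chosen after the data were seen, and the others named are marked. A gene that the rule picked is not reported here. The members and lists were chosen with earlier results of these data known. Intervals and floors cover counting error only.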

Additional observations from a re-analysis of the deposited data

How the results depend on the processing

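Over 12 other settings, Krt7, Krt8, Krt18 and Krt19 rose in each, with log2 fold changes of 2.47 to 3.55. Keratins that rose numbered 4 or 5 of 9, and 4 with the replicate block, which lost Krt15 (adjusted p = 0.106). Beside that, the block took Scel, Tie1 (0.0502) and Krt79 above the threshold and brought Krt12 and Krt4 under it, and it left 2 immune and 3 endothelial markers that rose and 1 basal epithelial and 1 endothelial gene that fell. Krt13 ranged over log2 fold changes of -0.021 to 1.59 and Krt20 of -0.041 to 2.02 when 1 library was left out, both lowest without a library labelled Axin2- (mouse 1 for Krt13, mouse 3 for Krt20). With library-size scaling 3255 genes rose and 1573 fell, against 2447 and 2171, and the median of all genes was 0.16. Relative to that median the simple keratins stood as reported. That scaling raised the other intermediate filament genes that rose to 2, as did DESeq2. With no filter on low counts 2 squamous genes and 3 immune markers rose, and 2 other intermediate filament genes and 1 transcription factor fell. With at least 1 CPM in 3 libraries 0 squamous genes rose, 1 endothelial marker fell, and Krt5 and Krt13 were not tested. In DESeq2, 2 squamous genes and 5 other keratins rose, and 1 basal epithelial gene, 1 endothelial marker and 2 other keratins fell. Leaving out 1 library gave 1491 to 2304 genes that rose and 1053 to 1911 that fell. It gave 0 to 1 squamous, 0 to 1 other intermediate filament, 3 to 6 endothelial and 0 to 6 immune genes that rose. It also gave 0 to 1 basal epithelial, 2 to 3 other intermediate filament, 0 to 2 transcription factor, 0 to 1 endothelial and 1 to 2 immune genes that fell. The ratio of type I to type II was 1.55 (labelled Axin2+) and 1.54 (labelled Axin2-) without division by length, against 2.08 and 2.16, because the lengths differ, and 2.16 and 2.21 with principal transcripts, a setting chosen after seeing the data. The causes of the other changes were not tested. The basal or squamous keratins rest on few reads, and their 3 libraries a fraction limit what can be called.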
